A study of Mus musculus with 6 samples.

Results

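The comparison set 1 line of androgenetic haploid embryonic stem cells, A129-2, against a pair of other lines of the same kind, AOS-14 and AOS-16. It used 3 of the 6 libraries of the series, 1 for A129-2 and 2 for the AOS lines, and every gene was measured in all 3. Androgenetic haploid embryonic stem cells (AG-haESCs) come from embryos made by injecting a sperm head into an oocyte whose spindle has been removed, so their single genome is paternal. The labels give all 3 lines the same background, a hybrid of C57BL/6 and DBA/2, and the same culture on feeder cells in knockout serum replacement medium with 2i (inhibitors of the kinases MEK and GSK3). Haploid cells in G0/G1, stained with a Hoechst dye, were collected by flow sorting in each case. The labels give no allele, passage or age that separates A129-2 from the AOS lines, and do not say what the line names stand for. Each library is 1 line, and nothing says that it represents more than 1 culture.

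Haploid embryonic stem cells carry 1 copy of each chromosome. In a genome of sperm origin, imprinted genes are expected to follow the paternal pattern, in which paternally expressed genes are active and maternally expressed ones silent. Under 2i, embryonic stem cells hold the naive state of the early epiblast, with low DNA methylation, and NODAL, BMP, FGF-ERK and LIF signals tune that state.

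Levels are given as TPM (transcripts per 1000000), that is, the deposited length-scaled values of each library rescaled to the same total after small RNA genes were left out. Differences are in log2(TPM + 1), A129-2 minus the mean of the AOS lines. Values for the AOS lines are always in the order AOS-14, AOS-16. Calls of higher or lower required a difference of at least 1, which is 2-fold, with A129-2 outside both AOS lines. This is a rule of size with no p-value. Of 23889 genes, 13473 reached 1 TPM in at least 1 of the 3 libraries. Of these, 1194 (8.86%) were called higher in A129-2 and 681 (5.05%) lower. Leaving size aside, A129-2 lay above both AOS lines for 47.1% of genes and below both for 28.8%. For scale, the 2 AOS lines differed from each other by at least 1 for 1100 genes, or 8.16%.

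The direction of the balance depended on how the libraries were scaled. The share of calls that were higher in A129-2 was 63.7%, and it was 48.4% with the values as deposited, 52.6% after quantile normalization, 51.8% with the median outside chromosome 8 removed and 70.1% with the small RNA genes kept. The median difference over all genes moved with it, from 0.12 to -0.06 with the values as deposited. limma, a linear model with a variance moderated across genes, had 1 residual degree of freedom, from the AOS pair alone. At a Benjamini-Hochberg adjusted p under 0.05, limma passed 0 genes higher and 0 genes lower (0% each), against 2020 genes at an unadjusted p under 0.05. The smallest adjusted p was 0.0611, shared by Lefty1, BC002163 and Olfr856-ps1. The differences below are therefore described by size and by whether A129-2 lay outside both AOS lines, and A129-2 has no replicate.

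**Figure D1:**
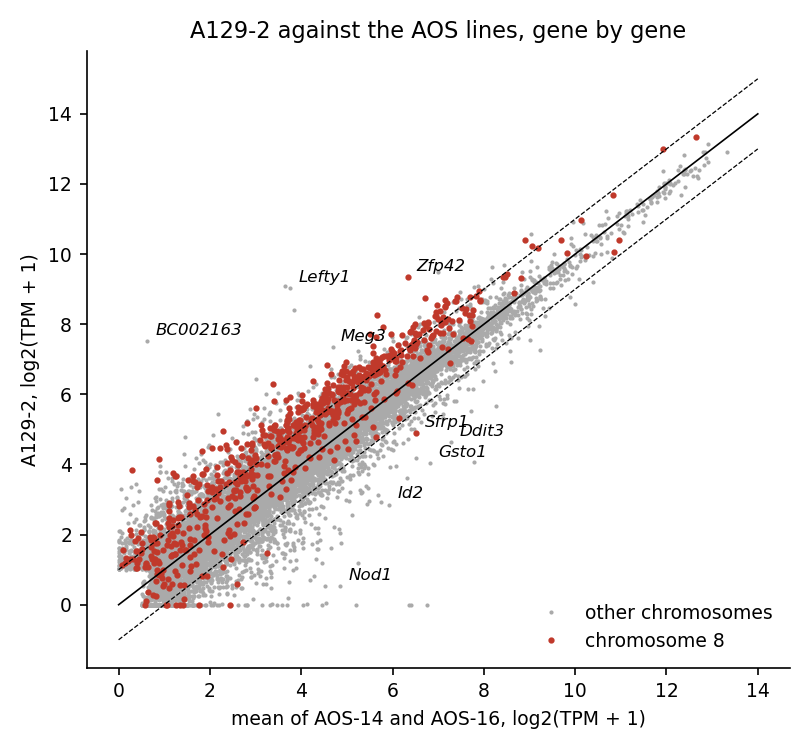
Level of each of 13473 genes in A129-2 (vertical axis) against the mean of AOS-14 and AOS-16 (horizontal axis), both in log2(TPM + 1). Red points are genes of chromosome 8, the solid line marks equal levels and the dashed lines a difference of 1. The red points lie mostly along the upper dashed line.

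Estimated depth, read from the steps of low values, was about 9280000 fragments for A129-2, 19700000 for AOS-14 and 10800000 for AOS-16. At these depths 1 TPM on a transcript of 2000 nt stands for about 8.5, 22 and 11 fragments. Depth is not known gene by gene, so no counting intervals are given. AOS-14 stood apart in small RNA genes, which held 11.9% of its total, against 0.108% in A129-2 and 0.00192% in AOS-16, and among short transcripts. For the 167 genes outside chromosome 8 with a transcript under 600 nt, the median difference from AOS-14 was -0.47 and that from AOS-16 was 0.05. For the 4280 genes of at least 4000 nt, these medians were 0.26 and 0.09. The elongation factor gene Eef1a1 was listed at 0 in all 3 libraries, so a value of 0 can be a failed estimate.

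The pluripotency markers bore out the label in every line. Their summed level, over Pou5f1, Nanog, Sox2, Zfp42, Esrrb and Dppa5a, was 7811 TPM in A129-2 against 8019 and 6758 in the AOS lines. Markers of spermatids summed to 0, 2.70 and 0 TPM, those of blood cells to 0, 0.812 and 0.519, and those of trophoblast to 11.3, 18.96 and 12.7. Of the 8 Y-linked genes on the list, each was under 0.2 TPM in every library, and A129-2 was listed at 0 for all 8.

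Genes of chromosome 8 were higher in A129-2 as a chromosome. Their median difference, relative to the other autosomes, was 0.85 against AOS-14 and 0.88 against AOS-16, while the AOS lines differed from each other by -0.03. No other autosome had a median beyond -0.05 to 0.08 against the AOS mean. Of 726 chromosome 8 genes, 608 (83.7%) lay above both AOS lines and 52 (7.16%) below both, compared with 45.0% and 30.0% of the other genes. Called higher were 343 (47.2%) and called lower 11. Chromosome 8 thus gave 28.7% of the genes called higher while holding 5.39% of the genes compared. Outside it, 851 of 12747 genes (6.68%) were called higher and 670 (5.26%) lower.

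**Figure D2:**
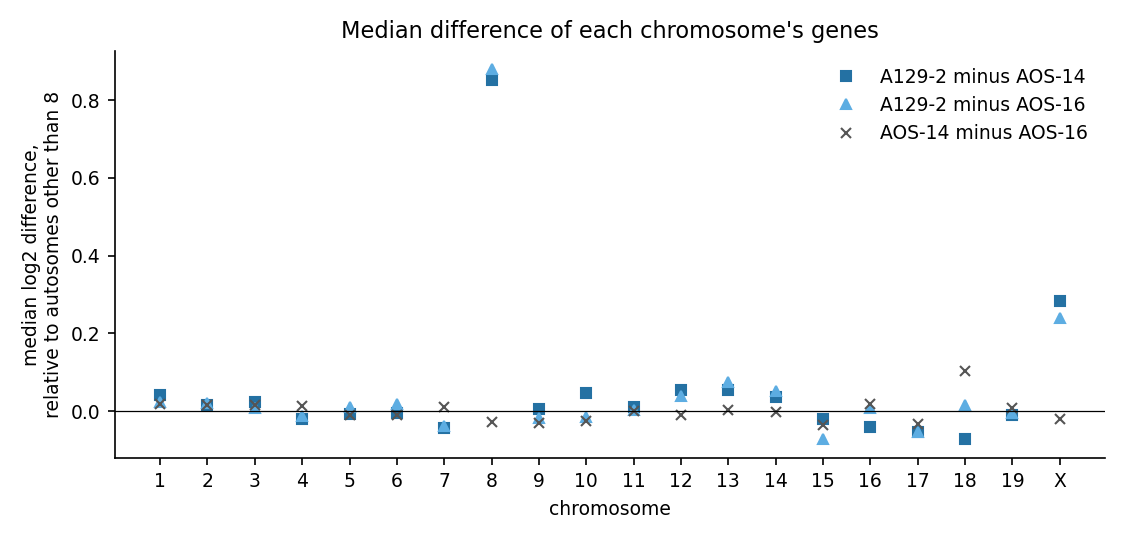
Median log2(TPM + 1) difference of the genes of each chromosome, relative to the median over all autosomes other than 8, for A129-2 minus each AOS line (squares and triangles) and for AOS-14 minus AOS-16 (crosses). Chromosome 8 stands at 0.85 and 0.88 in the comparisons with A129-2, chromosome X at 0.28 and 0.24, and the other autosomes near 0.

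The shift was spread along the whole chromosome. Cut into 10 bins by gene order, chromosome 8 had medians between 0.76 and 1.00 relative to the other autosomes, and each bin held between 32 and 40 genes called higher. The shift was smaller for genes at low levels. It was 0.64 for the 257 genes with a mean under 10 TPM, 0.94 for 270 genes of 10 to 50 TPM, 0.99 for 156 genes of 50 to 200 TPM and 0.77 for 43 genes above that. A pseudocount of 1 shrinks the differences of low genes. With it set to 0.1 the median over the chromosome was 0.95.

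**Figure D3:**
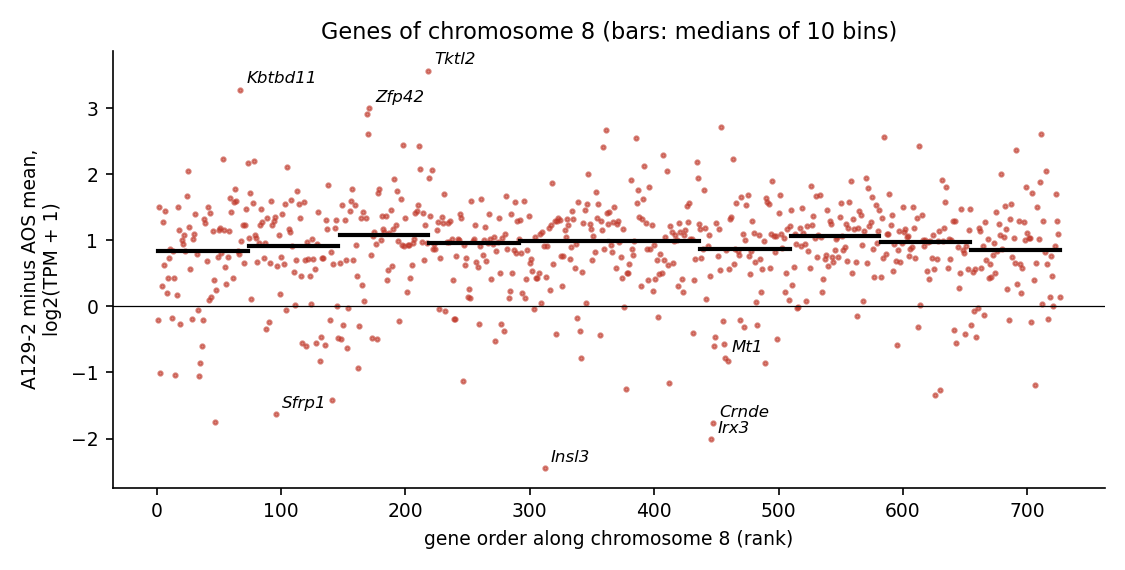
Difference between A129-2 and the AOS mean, in log2(TPM + 1), for 726 genes of chromosome 8 in their order along the chromosome. Each point is a gene and each bar the median of 1 of 10 bins of genes, here not set relative to the other autosomes. All 10 bars lie well above 0, and single genes such as Sfrp1, Irx3 and Insl3 lie below it.

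Set beside the mean of the 2 ESC XX libraries, which are cells labelled XX and grown in serum, LIF and 2i and were scaled in tables of their own, chromosome 8 stood at 0.60 in A129-2 and at -0.24 and -0.21 in the AOS lines, relative to the other autosomes. Those autosomes lay between -0.08 and 0.07 in all 3 lines. Chromosome X stood further from them than chromosome 8, at 1.105 in A129-2 and at 0.858 and 0.895 in the AOS lines. The ESC XX libraries are thus not a level reference for every chromosome, and the reason was not tested. The ESC XX libraries differed by 0.00 between themselves on chromosome 8. The values of the 3 lines share the same ESC XX libraries and are given side by side without a test. Copy number was not measured, and its part in the shift was not tested.

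The most abundant genes of chromosome 8 followed the shift unequally. Rpl13, a protein of the large ribosomal subunit, was at 8189 TPM in A129-2 against 3826 and 3915 in AOS-14 and AOS-16, a 2.12-fold difference. A129-2 was the highest line and the AOS lines lay close together. Cox4i1 (1.81-fold), Slc25a4 (1.98-fold), Lamp1 (2.27-fold), Gabarapl2 (2.68-fold) and Eif4ebp1 (1.64-fold) were also above both AOS lines. Calr, a chaperone of the endoplasmic reticulum, was at 1053 TPM, between the AOS lines at 601.5 and 1336.5.

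The metallothioneins Mt1 and Mt2, small metal-binding proteins, went the other way. Their relative Mt4 was called higher, at 10.7 TPM against 2.16 and a value listed at 0. Mt1 was at 1065 TPM in A129-2 against 1714 and 1966, and Mt2 at 1343 against 1947 and 2047. Both lay below both AOS lines, although on a chromosome where 83.7% of genes lay above. So did Nqo1 (76.6 against 83.9 and 86.6 TPM) and Gsr (181 against 185 and 238), enzymes of the defence against oxidants, as well as Ifi30 and Gm6793. The list of oxidative stress and metal genes had 16 members, of which 11 lay below both AOS lines, against 28.8% of all genes, and 4 above. The 1 called lower is near the share of 5.05% over all genes. That gene, Gsto1, a glutathione transferase on chromosome 19, was at 15.4 TPM in A129-2 against 149 and 84.1 in the AOS lines, a log2 difference of -2.79 ± 0.39 (SE, limma).

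Of the 11 chromosome 8 genes called lower, Sfrp1 was the most abundant. This secreted antagonist of WNT was at 28.7 TPM in A129-2 against 91.9 and 89.7 in the AOS lines, a difference of -1.63 ± 0.22. The AOS lines were close together and A129-2 stood apart. Irx3, a homeobox gene, was at 0.493 against 4.53 and 5.51 TPM, and the long non-coding RNA Crnde at 1.80 against 9.16 and 8.01. Insl3, a hormone of the relaxin family, was listed at 0 against 6.59 and 2.91. The other 7 (Smim18, Hsd17b2, Osgin1, 1700067K01Rik, Fam89a, Hapln4 and A430078G23Rik) were under 5 TPM in every library.

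The largest excesses on the chromosome went beyond the shift. Zfp42, the naive-state marker also called Rex1, was at 650 TPM in A129-2 against 88.0 and 72.8 in the AOS lines, a difference of 3.01 ± 0.23 and a fold of 8.08. Its neighbours Triml1 (78.0 against 7.77 and 11.4 TPM) and Triml2 (306 against 47.2 and 51.9) were higher as well, by 2.92 and 2.60. The 3 genes adjoin in the order of kept genes, and for each the level in A129-2 was at least 5 times that of either AOS line. Tktl2 (3.57), Kbtbd11 (3.28), Mt4 (2.72), Tbc1d9 (2.66) and Sprtn (2.61) completed the 8 highest differences. limma gave Zfp42 an adjusted p of 0.154.

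Chromosome X was shifted to a lesser degree. Its median was 0.28 against AOS-14 and 0.24 against AOS-16, and 92 of its 560 genes (16.4%) were called higher and 14 lower. The shift shrank with level, to 0.11 over the 135 genes averaging 50 TPM or more, where chromosome 8 stood at 1.02. Without the Rhox, Xlr and Magea families the X median was 0.23 over 527 genes. Of 23 X-linked genes on a list of regulators and widely expressed genes, 1 was called higher. This was Tsix, the antisense transcript of Xist, at 3.48 TPM against 0.375 and 0.581. Xist was at 2.51, 1.37 and 1.69 TPM. The 2 genes overlap, and the use of strand in counting is not given in the sources used here.

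In NODAL and BMP signalling a few genes differed widely and most did not reach the size for a call. NODAL is a ligand of the TGF-beta family that signals through SMAD2 and SMAD3 in pluripotent cells, and its targets include its own inhibitors, the Lefty proteins. BMP signals through SMAD1 and SMAD5 and induces the Id genes, which encode inhibitors of basic helix-loop-helix factors. Of 22 genes of the list, 6 were called higher and 1 lower, against 8.86% and 5.05% of all genes. The median was 0.24 against 0.12, and the 1 called lower is near the share over all genes.

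Among ligands, Nodal was at 91.5 TPM in A129-2 against 23.1 and 37.9 in the AOS lines (1.59 ± 0.36). Bmp4 was low in every line, at 1.77, 2.40 and 1.79 TPM. Among targets that feed back on the ligand, Lefty1 was at 521 TPM against 13.1 and 11.9, a 41.8-fold difference (5.28 ± 0.24, limma adjusted p = 0.0611). Lefty1 had the third highest difference among genes that reached 10 TPM in the higher group. Lefty2, its neighbour on chromosome 1, was at 95.2 against 19.8 and 36.0 TPM (1.79 ± 0.40). A129-2 was above both AOS lines for Nodal, Lefty1 and Lefty2.

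Receptors and SMADs were not called in either direction. The co-receptor Tdgf1 was at 502 TPM against 522 and 643. The type I receptor Acvr1b (12.7 against 14.02 and 26.4) and the type II receptor Acvr2b (10.1 against 18.2 and 13.9) were below both AOS lines. Smad7, an inhibitory SMAD, was at 35.9 against 25.1 and 22.2 TPM, and Smad1, on chromosome 8, at 26.6 against 12.0 and 17.7.

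The Id genes split. Id1 (14.1 against 4.21 and 2.03 TPM) and Id3 (27.5 against 13.2 and 7.03) were higher in A129-2. Id2 was lower, at 6.25 TPM against 77.9 and 45.2, a difference of -3.06 ± 0.39, and Id4 stood at 2.17, 6.67 and 2.30. Id2 differed in the same direction from each AOS line, by -3.45 and -2.67. All 7 calls of this list were also at least 1 away from each AOS line taken alone.

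**Figure D4:**
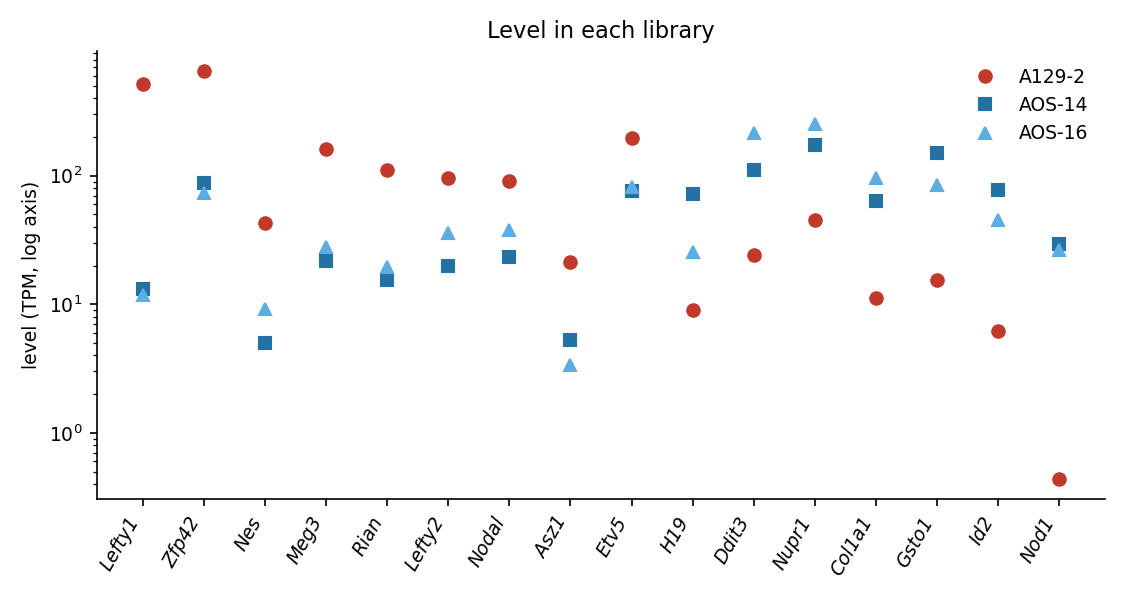
Level in TPM, on a log axis, of 16 genes in A129-2 (circles), AOS-14 (squares) and AOS-16 (triangles). From Lefty1 to Etv5 the circle lies above both AOS symbols, and from H19 to Nod1 below both.

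At the core of the pluripotency network, Pou5f1, Sox2 and Nanog were not called in either direction. Pou5f1 was at 1566.5 TPM in A129-2 against 2111 and 2153 in the AOS lines, Sox2 at 207, 188 and 202, and Nanog at 798, 616 and 531. The list of 18 core genes had a median of 0.32 against 0.12 over all genes. Of the list, 3 were called higher and none lower, against 8.86% and 5.05% of all genes. They were Lin28a, an RNA-binding protein that blocks let-7 (56.1 against 10.6 and 20.4 TPM), L1td1, an RNA-binding protein derived from a LINE-1 open reading frame (196 against 59.6 and 64.7), and Dppa2, a DNA-binding protein of early embryos (104 against 50.6 in both AOS lines). Dppa2 was no longer called under 3 of the 4 other scalings.

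Naive-state factors went both ways. On a list of 17, 2 genes were called higher and 1 lower, near the shares of 8.86% and 5.05% over all genes. The 2 called higher, Zfp42 and Klf2, both lie on chromosome 8. Klf2 was at 406 TPM against 176 and 152, a difference of 1.31 ± 0.23. The other Kruppel-like factors, which lie elsewhere, were below both AOS lines, Klf4 at 91.3 against 186 and 158 TPM and Klf5 at 79.7 against 128 and 155. Tfcp2l1, a factor downstream of LIF, was called lower at 45.8 against 122 and 81.2 TPM, though by less than 1 against AOS-16 alone. Nr5a2 (22.7 against 12.3 and 11.8) and Zscan10 (54.3 against 20.8 and 35.9) were above both without reaching the size for a call, while Prdm14, at 33.0, 33.5 and 33.8 TPM, and Esrrb, at 155, 135 and 129.4, were nearly level. Of 9 post-implantation genes kept, Pou3f1 (0.227 against 3.12 and 5.50 TPM) and Lef1 (1.73 against 3.15 and 15.3) were called lower and none higher.

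Of 13 targets of the ERK pathway, which 2i blocks, 3 were called higher and 1 lower, against 8.86% and 5.05% of all genes. Above both AOS lines lay 9, against 47.1% of all genes, and the median was 0.60 against 0.12. The ETS factors Etv5 (198 against 76.5 and 81.3 TPM, 1.32 ± 0.21) and Etv1 (7.98 against 1.86 and 1.69) were higher. The third, Etv4, was above both lines at 25.9 against 13.2 and 14.1, short of a call. Among Sprouty inhibitors Spry1 was lower (4.82 against 11.8 and 10.8) and Spry4 higher (2.38 against 1.11 and 0.310), and Spry4 lost its call under 3 of the 4 other scalings. Dusp6, a phosphatase of ERK, was low throughout, at 4.17, 3.34 and 3.33 TPM. The list of LIF and STAT3 genes held 1 call in 11, Junb on chromosome 8 (114 against 18.4 and 27.7 TPM). Socs3, the feedback inhibitor of STAT3, stood at 65.7, 45.5 and 60.4 TPM. Of 8 WNT targets kept, Lef1 alone was called.

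**Figure D5:**
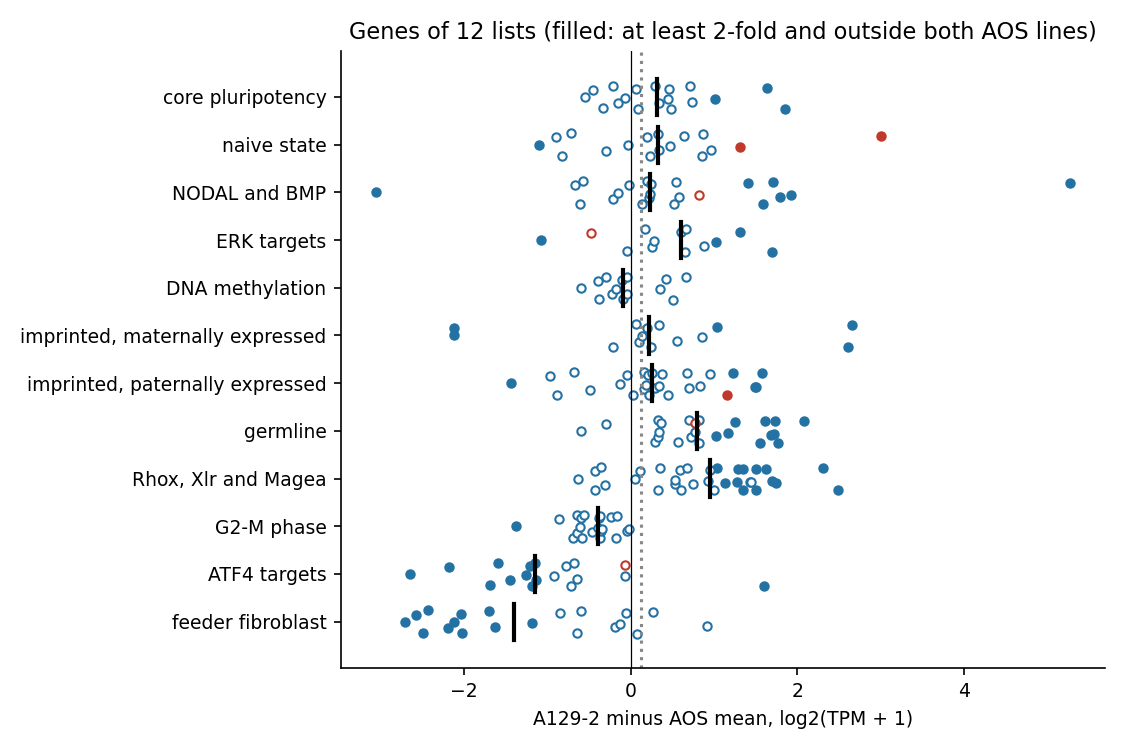
Difference between A129-2 and the AOS mean, in log2(TPM + 1), for each gene kept of 12 lists. Filled points were called, open points were not, red points lie on chromosome 8, bars mark list medians and the dotted line the median of all genes. The bars of ATF4 targets (-1.14) and feeder fibroblast genes (-1.40) lie to the left of 0, and those of germline genes (0.80) and of Rhox, Xlr and Magea genes (0.95) to the right.

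Imprinted genes differed at 2 domains and at scattered loci. On chromosome 12, the maternally expressed RNAs Meg3 (162 against 21.9 and 28.0 TPM, 2.66 ± 0.27) and Rian (111 against 15.5 and 19.5, 2.61 ± 0.27) were higher in A129-2. The paternally expressed genes of that domain stayed low in every line, Dlk1 at 2.04, 1.66 and 2.31 TPM and Dio3 at 1.27, 1.51 and 0.506, and Rtl1 stood at 1.15, 0.145 and 0.0677. On chromosome 7 the adjoining kept genes H19 (9.06 against 71.5 and 25.5 TPM, -2.12 ± 0.63), Igf2 (2.01 against 6.26 and 8.15) and Ascl2 (2.24 against 10.1 and 17.0) were all lower. H19 and Ascl2 are expressed from the maternal copy and Igf2 from the paternal one, so both kinds were lower together there.

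Over the lists, 3 of 14 maternally expressed genes were called higher and 2 lower, and 5 of 27 paternally expressed genes were called higher and 1 lower. Over all genes these shares were 8.86% higher and 5.05% lower, and a count of 1 in 27 is below the latter. From the paternally expressed list, Ndn (64.3 against 22.9 and 19.1 TPM) and Peg12 (31.9 against 8.71 and 13.1) of the Prader-Willi domain were called higher. So were Impact, a regulator of GCN2 (182 against 66.7 and 60.2), Inpp5f (10.3 against 3.57 and 4.09), and Gab1 on chromosome 8 (144 against 56.8 and 72.4). Lists were made by name, and imprinting in these cells was not measured. Snrpn, of the same domain as Ndn, stood at 150, 120 and 150 TPM, and Peg3 at 16.2, 10.3 and 14.4. Ube3a, from the maternally expressed list, was called higher at 30.0 against 13.5 and 14.7 TPM and lost its call under 3 of the 4 other scalings.

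No gene of the DNA methylation list was called among 14. Uhrf1, which recruits the maintenance methyltransferase, was at 148 TPM against 230 and 217, and Dnmt1 at 69.1 against 88.2 and 91.5, both below both AOS lines by less than 2-fold. The de novo enzymes Dnmt3a (11.6, 7.52 and 9.32 TPM) and Dnmt3b (26.0, 36.1 and 32.8) and the dioxygenases Tet1 (39.5, 42.4 and 38.9) and Tet2 (31.2, 34.2 and 32.7) were close. The imprint protector Zfp57 was at 168, 187 and 160 TPM and its cofactor Trim28 at 501, 570 and 497. Among 12 genes of H3K9 methylation none was called, and among 11 of Polycomb repressive complex 2 only Phf19 was, at 3.85 against 9.40 and 8.50 TPM.

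Germline genes were higher in A129-2. These genes act in germ cells and meiosis, and in somatic and embryonic cells many are held silent by DNA methylation and by a repressor complex that binds E-boxes. Of 24 kept, 10 were called higher and none lower, 16 lay above both AOS lines and none below, with a median of 0.80 against 0.12 over all genes. Over all genes 8.86% were called higher and 5.05% lower, 47.1% lay above both and 28.8% below both. Asz1, a piRNA pathway protein, was at 21.2 TPM in A129-2 against 5.27 and 3.39 (2.08 ± 0.41), and Sycp3, of the synaptonemal complex, at 34.8 against 14.9 and 5.96 (1.77 ± 0.56). Taf7l, a germline form of a TFIID subunit, was at 127 against 36.2 and 39.6, and Tex13 at 37.7 against 13.1 and 8.56. Dazl, Stk31, Syce1, Slc25a31, Tex11 and Rpl10l were the other 6. Counting called and uncalled members, 15 were at least 2-fold higher than AOS-16 alone and none lower, and 8 were at least 2-fold higher than AOS-14 alone and 1, Brdt, lower. The shares of all genes higher were 8.69% and 11.4%. Ddx4 (14.7, 17.8 and 6.92 TPM) and Mael (22.5, 24.8 and 12.6) lay between the AOS lines.

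Promoters are shown for the germline genes called higher with the E-box CACGTG, a palindrome, in the 250 bases before the start, for the pair with the largest differences. Sequences are from RefSeq on GRCm38.p6, another build than the mm9 of the expression values, 5′ to 3′ in the direction of the gene, with E-boxes in capitals. Sycp3 is at chr10:88459337-88459586, plus strand, and Taf7l at chrX:134476491-134476740, minus strand.
Sycp3: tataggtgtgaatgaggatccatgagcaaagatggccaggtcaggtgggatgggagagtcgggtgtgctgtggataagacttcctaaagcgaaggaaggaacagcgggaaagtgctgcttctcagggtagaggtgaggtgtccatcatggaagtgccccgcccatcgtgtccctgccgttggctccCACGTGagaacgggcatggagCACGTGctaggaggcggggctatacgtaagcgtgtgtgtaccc
Taf7l: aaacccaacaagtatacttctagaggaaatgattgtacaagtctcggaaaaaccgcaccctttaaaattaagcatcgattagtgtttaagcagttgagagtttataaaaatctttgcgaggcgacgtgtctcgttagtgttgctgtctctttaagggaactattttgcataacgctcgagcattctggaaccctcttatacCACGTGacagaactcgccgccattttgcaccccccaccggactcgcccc
Of 21 germline genes matched in the promoter table, 12 held CACGTG, or 57.1%, against 9.97% of 10058 kept genes with an entry and 6.02% of all 32851 promoters. It stood in 4 of the 8 matched genes that were called higher. It also stood in Brdt, Ddx4, Dnmt3l, Fkbp6, Hormad1, Mael, Mov10l1 and Sycp1, which were not called. Within the list it was therefore not particular to the called genes. A match is a description and not a binding site.

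Multicopy families of chromosome X were higher too. The Rhox homeobox cluster and the Xlr and Magea families are expressed mainly in germ cells and placenta. Of 33 kept, 14 were called higher and none lower, against 8.86% and 5.05% of all genes, with a median of 0.95. Only 6 of the 14 were also at least 1 away from each AOS line taken alone. Under the 4 other scalings 11 to 15 were called higher. Rhox4a (6.57 against 0.471 and 0.239 TPM) and Magea4 (53.1 against 8.71 and 11.3) had the largest differences, 2.49 and 2.31. Rhox13, a single-copy member, was at 110 against 39.4 and 26.2 TPM, and Rhox4e at 2.40 against 0.105 and a value listed at 0. The AOS lines did not move as 1 group here: Rhox6 and Rhox9 were highest in AOS-14 (84.9 and 84.3 TPM), and Xlr3a in AOS-16 (225 TPM). Members share sequence, so the split of fragments between copies is uncertain. Genes of the 2-cell stage, a list of 11, had 3 calls, all higher. The largest, Pramel6, stood at 30.9 TPM against 30.1 and 2.76 in the AOS lines, and all 3 calls were lost under 3 of the 4 other scalings.

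Targets of ATF4 were lower in A129-2. ATF4 is the transcription factor of the integrated stress response, which switches on amino acid synthesis and transport when amino acids run short or proteins misfold. Of 18 genes, 10 were called lower and 1 higher, 15 lay below both AOS lines, and the median was -1.14 against 0.12 over all genes. Over all genes 5.05% were called lower and 8.86% higher, and 28.8% lay below both. Counts stayed at 10 or 11 lower under the 4 other scalings. Against AOS-14 alone 5 were at least 2-fold lower, and against AOS-16 alone 13, where 6.06% and 7.07% of all genes were. The summed fibroblast markers described below had the same order of lines, lowest in A129-2 and highest in AOS-16, and their part in this result was not tested.

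Among the regulators, Atf4 itself was at 193 TPM in A129-2 against 382 and 482 in the AOS lines. Ddit3, the stress factor CHOP, was at 23.9 against 111 and 216 (-2.64 ± 0.43), and Nupr1, a stress-induced chromatin protein, at 45.3 against 173 and 254 (-2.18 ± 0.30). Cebpb and Trib3, partner and inhibitor of these factors, were also called. A129-2 was lowest and AOS-16 highest for each of these. Among enzymes, Asns, asparagine synthetase, was at 188 against 496 and 530 TPM (-1.44 ± 0.22), and Phgdh, the first enzyme of serine synthesis, at 70.7 against 204 and 227. Ddit4, Chac1 and Aldh18a1 completed the 10. The amino acid transporters Slc7a5 (191, 162 and 249 TPM) and Slc3a2 (278, 238 and 358) lay between the AOS lines, and the cystine transporter Slc7a11 went the other way, at 2.59 against 0.162 and 0.208.

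Promoters are also shown for called members with a C/EBP-ATF composite element, the type of site that ATF4 binds with a partner. They are the 3 with the largest differences in either direction. Of these, 2 were lower in A129-2 and the third was the exception. The element was searched as TGATGNAA on both strands in the 250 bases before the start and is in capitals. Positions are on GRCm38.p6. Nupr1 is at chr7:126625471-126625720, minus strand, Asns at chr6:7693210-7693459, minus strand, and Slc7a11 at chr3:50443614-50443863, minus strand.
Nupr1: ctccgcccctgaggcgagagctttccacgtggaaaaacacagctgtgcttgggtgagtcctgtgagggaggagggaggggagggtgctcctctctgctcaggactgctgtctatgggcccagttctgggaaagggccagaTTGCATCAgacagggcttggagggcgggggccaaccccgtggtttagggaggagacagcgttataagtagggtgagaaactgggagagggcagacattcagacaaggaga
Asns: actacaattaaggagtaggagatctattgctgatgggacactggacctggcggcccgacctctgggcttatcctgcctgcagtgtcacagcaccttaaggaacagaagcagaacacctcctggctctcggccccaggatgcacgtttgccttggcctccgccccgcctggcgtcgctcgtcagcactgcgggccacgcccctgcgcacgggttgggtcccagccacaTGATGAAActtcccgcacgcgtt
Slc7a11: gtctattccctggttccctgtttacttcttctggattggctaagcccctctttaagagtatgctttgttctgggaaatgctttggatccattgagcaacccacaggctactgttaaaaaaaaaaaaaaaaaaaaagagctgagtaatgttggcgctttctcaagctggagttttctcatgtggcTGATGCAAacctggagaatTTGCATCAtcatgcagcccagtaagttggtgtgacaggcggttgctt
Of 17 ATF4 targets matched in the table, 5 held the element, or 29.4%, against 2.40% of kept genes and 3.45% of all promoters. It stood in 4 of the 11 matched members that were called, the lower genes Nupr1, Asns and Chac1 and the higher gene Slc7a11. The other called members, among them Ddit3, Atf4 and Trib3, held no match.

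Glycolysis and hypoxia genes differed more from AOS-16 than from AOS-14. Of 21, 3 were called lower and none higher, against 5.05% and 8.86% of all genes. They were Egln3, an oxygen sensor (14.4 TPM in A129-2 against 39.3 and 112 in the AOS lines), Vegfa (54.9, 115 and 241) and Hk2 (83.2, 133 and 221). Against AOS-16 alone 7 were at least 2-fold lower, against AOS-14 alone 2, where 7.07% and 6.06% of all genes were. Slc2a1, the glucose transporter, stood at 629, 709 and 1658 TPM. None of 27 sterol and lipid synthesis genes was called.

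Genes of fibroblasts, the cells on which the lines were grown, were lower in A129-2. Of 20, 11 were called lower and none higher, 15 lay below both AOS lines, and the median was -1.40. Over all genes 5.05% were called lower and 28.8% lay below both, with a median of 0.12. Col1a1, the main chain of type I collagen, was at 11.2 TPM in A129-2 against 64.0 and 95.4 in the AOS lines (-2.70 ± 0.32). Col1a2 was at 6.27 against 40.7 and 43.9, Col3a1 at 2.35 against 15.0 and 21.3, and Postn at 0.872 against 8.03 and 10.2. The 8 defining markers summed to 26.3, 149.7 and 198.7 TPM, and Lum was listed at 0 in A129-2 alone. Vim, which embryonic stem cells also express, was highest in A129-2 (259 against 110 and 169 TPM), and Fn1 stood at 245, 208 and 311. In bulk RNA, fewer cells of a type and less RNA per cell cannot be told apart. All 3 libraries came from cells sorted as haploid, and how many feeder cells passed the sort was not measured. The source of these transcripts was not tested. Part of the list is also expressed outside fibroblasts.

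The defining primitive endoderm markers summed to 3.86 TPM in A129-2 against 10.7 and 11.5 in the AOS lines, a gap that came mostly from Gata6. Of the others, Gata4 stood at 2.07, 1.85 and 3.41 TPM, between the AOS lines. Pdgfra was nearly level at 0.705, 0.840 and 0.857, and Sox17 was low at 0.158, 0.735 and 1.54. Of 13 genes on the wider list, Gata6 (0.924 against 7.28 and 5.73 TPM), Amn, Lamb1 and the collagen chaperone Serpinh1 were called lower and Dab2 higher, and 10 lay below both lines. Over all genes 5.05% were called lower and 8.86% higher, and 28.8% lay below both. Several genes of the list, such as Lamb1 and Serpinh1, are made by fibroblasts as well. The role of the fibroblast RNA in these differences, and in H19 and Igf2, which fibroblasts can express, was not tested. Of 13 trophoblast genes, Plet1 (3.59 against 27.3 and 14.03 TPM) and Ascl2 were called lower. Neural genes were few, and of 5 kept, Nes, an intermediate filament protein (42.7 against 4.95 and 9.13 TPM), Tubb3 on chromosome 8 (97.1 against 21.9 and 47.8) and Pax6 (4.39 against 0.713 and 1.18) were called higher.

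Mitotic genes were slightly lower in A129-2. Of 21 genes of G2 and M phase, 17 lay below both AOS lines and none above, where 28.8% of all genes lay below. The median was only -0.39, and 1 gene was called, near the 5.05% of all genes called lower. This was Aurkb, a kinase of chromosome segregation, at 14.2 TPM against 37.6 and 39.2 (-1.37 ± 0.25). Top2a stood at 45.4, 72.9 and 70.1 TPM, Mki67 at 16.1, 27.6 and 23.8, and Ccnb1 at 103, 126 and 88.8. All cells were sorted as G0/G1. The counts below both lines were 16 to 19 under the other scalings.

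Replication genes followed the shift of chromosome 8. The 6 on it, Gins2, Gins3, Gins4, Orc6, Cdt1 and Mcm5, were all above both AOS lines, where 83.7% of its genes were. Of the 20 elsewhere 4 were, against 45.0% of other genes. Of all 26, 11 lay below both, against 28.8% of all genes. Called higher were 2, near the 8.86% of all genes, and none was called lower. These 2 were Gins4 (137 against 53.9 and 56.1 TPM) and Orc6 (210 against 103 and 88.2). Their partners on other chromosomes were not called, with Mcm2 at 217, 223 and 211 TPM and Gins1 at 37.1, 71.1 and 37.9.

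In some other lists, but not in all, the calls higher fell mostly on chromosome 8. Over all genes 8.86% were called higher and 5.05% lower, and of chromosome 8 genes 47.2% were called higher. Of 12 cell adhesion genes 2 were called higher and none lower. Both, Cdh1, the epithelial cadherin (371 against 97.2 and 161 TPM), and Cdh3 (14.8 against 3.68 and 7.10), lie on chromosome 8. Of 16 immediate early genes 4 were called higher and 3 lower. Of those higher, Junb, Ier2 (242 against 54.4 and 54.9) and Jund (357 against 156 and 126) lie there and Klf6 does not. Fos (34.9 against 80.6 and 81.4), Fosb and Ier3 were the 3 called lower. Of 14 apoptosis genes 2 were called higher, 1 of them on chromosome 8. The other was Casp8, an initiator caspase on chromosome 1 (8.67 against 1.26 and 1.92). Of the 13 apoptosis genes outside chromosome 8, 10 lay above both AOS lines, against 45.0% of all genes outside it. Of the 5 oxidative stress and metal genes on chromosome 8, only 1 lay above both. Of 37 proteasome genes the 1 called, Psmd7 (440 against 187 and 151), lies on chromosome 8.

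Of 17 p53 targets 4 were called higher and none lower, against 8.86% and 5.05% of all genes. With the values as deposited only 1 was called higher, and after quantile normalization 2. Pmaip1, the BH3-only protein NOXA, was at 34.0 TPM against 10.0 and 13.1, and Aen at 105 against 45.8 and 47.4. The classic targets Cdkn1a (88.2, 61.5 and 119 TPM) and Mdm2 (105, 97.7 and 158) lay between the AOS lines. Trp53inp1 and Eda2r lost their calls without AOS-14, and against AOS-16 alone 2 targets were at least 2-fold higher and 2 lower, with a median of -0.10.

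Lists of housekeeping machinery gave few calls. Over all genes 8.86% were called higher and 5.05% lower. The 76 cytosolic ribosomal protein genes had a median of -0.09. It was 0.00 with small RNA genes kept and -0.004 after quantile normalization. With the values as deposited it was -0.28, and with the median outside chromosome 8 removed -0.19. Below both AOS lines lay 42 and above both 10, against 28.8% and 47.1% of all genes. Called higher were 3 and called lower 1. Of these calls, 3 rested on AOS-14, namely Rps27, at 15.7 TPM against 2729 and 16.7, Rpl26, at 724 against 31.3 and 510, and Rpl34, at 785 against 128 and 653. All 3 have processed copies in the genome, so how fragments were split is uncertain, and all 3 lost the call without AOS-14. Of 81 respiratory chain genes 2 were called in each direction, Cox7b2 (48.5 against 15.5 and 12.0) and Cox4i2 higher and Cox7a2 and Atp5e lower. Of 46 clustered histone genes 7 were called higher and 3 lower, but against AOS-14 alone 13 were lower and 4 higher and against AOS-16 alone 4 lower and 13 higher. Of 13 housekeeping genes none was called higher and 1 was called lower. Spermatid genes gave 1 call in 5, Tssk6 on chromosome 8, and blood cell genes none in 3. Among 13 interferon and MHC genes H2-D1 was called higher (24.99 against 7.13 and 7.46) and H2-T23 and Ifitm3 lower.

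Several of the largest differences were at genes in no list. BC002163, with no chromosome in the table used, was at 183 TPM in A129-2 against 0.547 and 0.524, a 342-fold difference. Olfr856-ps1 (339 against 14.6 and 12.1 TPM), 4930470H14Rik (539 against 17.8 and 7.36), Tmem64, a membrane protein (85.5 against 6.60 and 7.49), and D1Pas1, an autosomal helicase related to DDX3 (42.5 against 3.26 and 3.78), were higher too. In the other direction, Nod1, an innate immune receptor, was at 0.441 against 29.4 and 26.4 TPM, and Pisd-ps1 at 0.0427 against 24.98 and 19.6. Gm8909 was listed at 0 against 21.4 and 20.7, Ptprtos at 0 against 13.1 and 10.8, and Snhg9 at 0 against 170 and 38.2. Olig1 (0.645 against 15.97 and 18.96) and Olig2 (listed at 0 against 8.92 and 11.4), neighbouring factors of oligodendrocyte fate, were lower together. The AOS lines lay close for most of these, and A129-2 far from both. Genes marked as pseudogenes can share fragments with related copies, which makes their values uncertain.

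Neighbours that were called in the same direction occurred outside chromosome 8 as well. With a run taken as at least 3 adjoining kept genes, there were 28 runs outside chromosome 8, 18 higher and 10 lower, and 49 on it. These genes were picked out for printing with their values known. The longest outside chromosome 8 held 11 genes of chromosome 4, from Tnfrsf8 to Gm13247, mostly zinc finger and predicted genes such as Zfp600 (37.2 against 2.83 and 11.7 TPM) and Gm13051 (64.7 against 7.18 and 14.5). All 8 runs of chromosome X were higher, among them Gm15107 to Gm15091 with 6 genes. The lower runs included the T cell receptor subunits Cd3g (1.26 against 50.02 and 27.0 TPM), Cd3d (2.41 against 31.8 and 24.7) and Cd3e with Mpzl2, and the ephrins Efna1, Efna3 and Efna4. The blood marker Ptprc was listed at 0 in all 3 libraries. H2-T23, Gm11127 and H2-Bl of the MHC region formed a further lower run.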

How the data were processed

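RNA was measured by polyA sequencing of sorted haploid cells, with a stranded mRNA kit, per the labels' protocols. Per the submitters' processing notes, the authors used TopHat2 2.0.13, Cuffdiff 2.2.1 and the mm9 build, and normalization between libraries is not given there. The deposited values of the 3 lines carry no unit in their header and were read as FPKM, from the tool and from the values. The ESC XX tables name FPKM in the file headers.

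Genes whose symbols start with Mir, Snora or Snord (1181) were left out, each library was rescaled to a total of 1000000 (TPM), genes of at least 1 TPM in at least 1 of the 3 libraries were kept and log2(TPM + 1) was taken, which understates differences of low genes. Calls and tests are as stated in the results. limma 3.58.1 in R 4.3.3 was fitted over all kept genes with a mean-variance trend, two-sided, on 1 residual and 3.79 prior degrees of freedom. A129-2 is thus assumed to vary like the AOS lines, and p-values measure only the spread between these samples, which may be technical. The method was tested on simulated data. Chromosomes and gene order came from RefSeq GRCm38.p6 by symbol (12655 genes) or synonym (759), for 99.6% of kept genes, and no positions were carried between builds. Transcript lengths for 95.3% of kept genes outside chromosome 8, and those used for depth, came from GENCODE vM21.

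The comparison, its members and the 39 gene lists were chosen with earlier results of these data known. Genes were named by list, by abundance and size of difference on chromosome 8 (12 most abundant, 8 highest, all called lower), and as the 12 highest and lowest over all chromosomes. That last rule was meant for genes passing limma. As limma passed none, it was applied to genes called by size, after the values were seen, and not all of these are printed. Other members of lists (receptors, uncalled relatives of called genes and the like) were added for context, also with their values known. A few genes that the rules would name are not reported here. Alternatives were other pseudocounts, filters, scalings and limma settings and leaving out each AOS line.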

Additional observations from a re-analysis of the deposited data

How the results depend on the processing

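No paired analysis was possible because A129-2 has 1 library and shares no replicate pairing with the AOS lines. The count of genes called higher, 1194, came to 633 with the values as deposited and 792 when A129-2 had to be at least 1 from the nearer AOS line. The count called lower, 681, came to 1131 with a pseudocount of 0.1 and 401 under the nearer-line rule. The chromosome 8 median of 0.88 was 0.95 with a pseudocount of 0.1, 0.72 with no filter, 0.91 with a filter of 5 TPM and 0.85 with the values as deposited. limma passed 9 genes higher and 7 lower with a filter of 5 TPM, 3 higher in its robust form, 2 higher with the median outside chromosome 8 removed and 1 higher with small RNA genes kept. It passed none in either direction at a pseudocount of 0.1, with no filter, as deposited, after quantile normalization or without the trend. The cause of these moves was not tested.

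Leaving out each AOS line in turn, the calls higher came to 1171 and 1539, the calls lower to 952 and 817, the chromosome 8 median to 0.88 and 0.85, and the share of calls higher on chromosome 8 to 27.4% and 23.5%. That share, 28.7%, was 32.9% under the nearer-line rule, 22.4% with a pseudocount of 0.1, 32.6% with a filter of 5 TPM and 33.5% with the values as deposited. Of 220 named genes 135 were called, 39 of these lost the call in at least 1 alternative and none changed direction. Counts per list against each AOS line alone were added after seeing the data, and 4 primitive endoderm genes called lower came to 7 without AOS-14. With 1 library of A129-2 at the lowest depth of the 3, differences at low levels are the least certain.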
